A study of Mus musculus with 10 samples.

Results

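Early neuronal differentiation genes are the genes that a cell of the cortical wall turns on as it leaves the cell cycle and becomes a neuron. The group here was a list of 35 gene symbols, picked by name and not by a cut on measured values. Earlier results of these data were known when the list was made, so the choice was not blind to them. It covers the neuronal cytoskeleton, the growth cone, RNA-binding proteins, transcription factors, adhesion molecules and the machinery of secretion. On the array, 37 of 21766 probes carried 1 of these symbols and no other, for 33 of the 35 genes and of 15063 genes named in this way; no probe was named for Cntn2 or Kif5c. Of the 37 probes, 32 for 28 genes were measured well enough to be tested, and the probes of Nefl, Celf4, Nrcam, Syt1 and Stx1a were not. A probe was tested when both dye orders of an array pair gave a ratio in at least 2 pools of each strain.

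The rostral and the caudal end of the neocortex of E11.5 mouse embryos were compared in C57, an inbred strain, and in MF1, an outbred stock, the strains serving to keep differences peculiar to a strain apart. There were 5 pools, 2 of C57 and 3 of MF1, each of tissue from 3 embryos per the labels, while the design text gives a minimum of 2 and both hemispheres; another C57 set that the text counts was not analysed here. The labels name no mutation or treatment. Amplified cDNA from both ends of a pool went onto the same array with Cy3 on one end and Cy5 on the other, and onto another array with the dyes exchanged, which makes 10 arrays. Each pool gives 1 replicate, and the number of pools limits the precision.

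At this stage most cells of the cortical wall are dividing neuroepithelial cells, and the first neurons gather in a thin outer layer called the preplate. Neurogenesis in the cortex is known to follow a gradient across its surface, with rostral and lateral parts ahead of caudal and medial ones. Newborn neurons stabilise microtubules with tubulins and associated proteins, extend growth cones, and replace transcript regulation typical of progenitors with neuronal RNA-binding proteins, while synaptic genes are expressed at low levels long before synapses form.

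Every value below is the log2 of caudal over rostral signal, less the median of that quantity over all probes of the same pool. A value above 0 means relatively more RNA at the caudal end than for the median probe. Before this subtraction the median probe stood at -0.17 and 0.37 for C57 pools 1 and 2 and at -0.20, 0.11 and 0.15 for the MF1 pools. The direction is likely, not stated with the values: the deposited ratio was read as Cy5 over Cy3. With that reading Nr2f1, known for a caudal gradient, stood at 1.79 ± 0.28 (SE, n = 5 pools) and at 0.50 ± 0.16 at its 2 probes, while Spry1, a target of rostral FGF signalling, stood at -1.35 ± 0.15. Emx2, another gene known for a caudal gradient, stood at 0.04 ± 0.14 with 2 of 5 pools above 0 and gives no direction. If the ratio were Cy3 over Cy5, all signs given here would be the other way round. The pools were unlike each other: correlations across probes between pairs of pools ran from -0.22 to 0.21, and arrays of the same dye order correlated between 0.02 and 0.44. In tissue of mixed cells, a different share of neurons and a different amount of RNA per neuron cannot be told apart. A 2-colour ratio also carries no level, so the presence of cortical markers in the tissue could not be checked.

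None of the 28 tested early neuronal genes passed the test for a difference between the caudal and the rostral cortex after adjustment over all tested probes. In limma's test of the mean of both strains, 0 of the 32 member probes and 0 of all 11855 tested probes passed a Benjamini-Hochberg adjusted p of 0.05, a background of 0%. The smallest adjusted p of a member was 0.988, against 0.298 over all probes. At an unadjusted p under 0.05 there was 1 member probe on the caudal side, Dpysl3, which is 3.12% of the members against 2.19% of all tested probes. On the rostral side there was none, against 2.41% of all tested probes. The members' counts at this level are therefore close to the background.

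The mean ratios of the member probes ran from -0.50 for L1cam to 0.51 for 1 of 3 Ncam1 probes. Their median was 0.13, and the median of all tested probes was 0.03. Of the 32 probes, 23 or 71.9% had a mean above 0, against 56.4% of all tested probes; these counts are descriptions and carry no test. Without subtracting the pool medians, 25 of the 32 and 69.4% of all tested probes were above 0. The median standard error of a member's mean was 0.18, larger than the median size of the means themselves, 0.16. For 27 of the 32 probes the 95% confidence interval of the mean lay wholly between -1 and 1, so a difference of 1 on the log2 scale in either direction lay outside the interval for those probes.

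By pool, the median of the measured member probes was 0.29 in C57 pool 1, 0.07 in C57 pool 2, and 0.10, -0.11 and 0.07 in MF1 pools 1, 2 and 3. C57 pool 1 stands apart in this series of values: 32 of its 36 measured member probes lay above the pool median. In the same pool the list of blood genes had a median of 0.81, against 0.21, 0.19, 0.10 and 0.03 in C57 pool 2 and the MF1 pools. Cell cycle probes lay above 0 for 9 of 11 in C57 pool 1 and 4 of 11 in C57 pool 2. In MF1 pools 1, 2 and 3 it was 8, 5 and 4 of 10, so C57 pool 1 was not alone in this. Their part in the result was not tested. The same count for the members was 24 of 36 in C57 pool 2, 18 of 33 in MF1 pool 1, 11 of 28 in MF1 pool 2 and 17 of 32 in MF1 pool 3. Without C57 pool 1, the mean of both strains was above 0 for 20 of 32 member probes, and their median was 0.08, against -0.0045 for all tested probes. The scatter of the members also differed between pools, with a scaled median absolute deviation of 0.16 in C57 pool 2 and 0.62 in MF1 pool 3. All probes of these pools had 0.19 and 0.47.

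**Figure D1:**
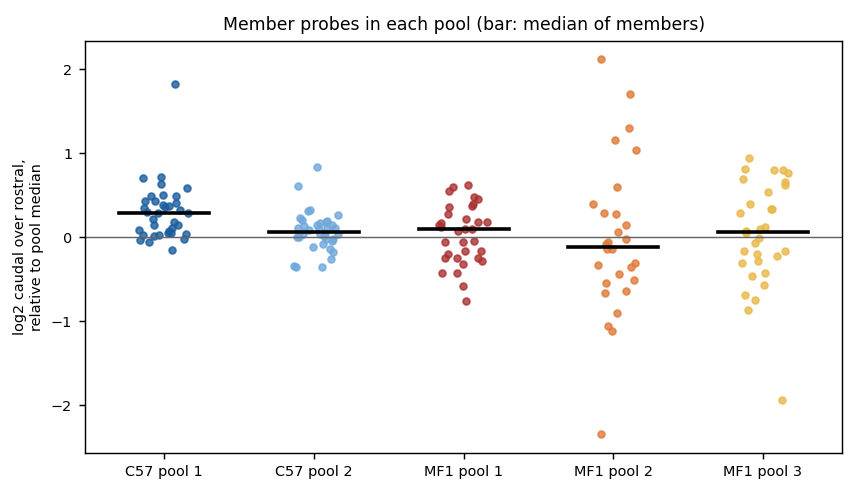
Each point is 1 member probe in 1 pool, as log2 caudal over rostral relative to the median probe of that pool (y axis), for 2 C57 and 3 MF1 pools (x axis); points are spread sideways for legibility and black bars are the medians of the members. The bar of C57 pool 1 is at 0.29 and that of MF1 pool 2 at -0.11, with a wider scatter in MF1 pools 2 and 3.

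Across the 25 member probes measured in all 5 pools, 3 lay above the pool median in every pool and 1 below it in every pool. That is 12% and 4%, against 5.27% and 2.66% of the 8924 probes so measured. The 3 caudal ones were Dpysl3, Syp and 1 of 3 Myt1l probes, and the rostral one was L1cam. Dpysl3 encodes a dihydropyrimidinase-like protein that binds tubulin and actin in growth cones. Syp encodes synaptophysin, a membrane protein of synaptic vesicles. Myt1l is a zinc finger factor that represses non-neuronal genes in neurons, and L1cam is an adhesion molecule of growing axons.

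The sequences from 250 bases before to 50 bases after a listed start site are shown for Syp, Myt1l and L1cam, the genes with all 5 pools on 1 side for which such a window is printed here. They come from RefSeq on GRCm38.p6 and belong to the reference, not to these mice. Capitals mark matches to the E-box CANNTG, which reads the same on both strands and is the kind of site that proneural factors such as Neurod1 bind; where a gene has several listed starts, the first is shown. The Syp window is chrX:7638330-7638629 on the plus strand and holds 0 matches. The Myt1l window is chr12:29528134-29528433 on the plus strand and holds 3. The L1cam window is chrX:73880741-73881040 on the minus strand and holds 1.
Syp: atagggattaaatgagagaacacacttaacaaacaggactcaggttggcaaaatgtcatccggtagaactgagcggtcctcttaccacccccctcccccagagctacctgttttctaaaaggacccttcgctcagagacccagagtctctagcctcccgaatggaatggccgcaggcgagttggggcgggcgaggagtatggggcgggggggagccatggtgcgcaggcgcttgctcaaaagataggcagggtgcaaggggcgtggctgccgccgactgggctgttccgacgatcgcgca
Myt1l: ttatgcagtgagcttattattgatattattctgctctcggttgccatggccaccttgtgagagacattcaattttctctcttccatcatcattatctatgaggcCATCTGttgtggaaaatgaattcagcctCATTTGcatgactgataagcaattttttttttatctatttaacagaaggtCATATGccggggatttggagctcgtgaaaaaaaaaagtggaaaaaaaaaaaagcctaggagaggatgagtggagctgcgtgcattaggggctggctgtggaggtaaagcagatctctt
L1cam: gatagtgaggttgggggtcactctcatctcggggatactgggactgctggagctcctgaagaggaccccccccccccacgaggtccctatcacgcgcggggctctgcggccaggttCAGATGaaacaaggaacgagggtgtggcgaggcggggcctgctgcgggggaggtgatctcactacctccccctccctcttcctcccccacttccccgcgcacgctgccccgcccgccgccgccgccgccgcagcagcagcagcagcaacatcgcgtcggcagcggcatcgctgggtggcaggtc

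The form CAGATG, or CATCTG on the opposite strand, is contained in CANNTG and occurs in the Myt1l and L1cam windows, with 1 match in each. Of the 33 member genes with a probe, 22 had a window in the promoter table. CANNTG was found in 11 of those 22 first windows, 50%, and in 72.1% of the 27025 first windows of all genes. CAGATG or CATCTG was found in 4 of 22, 18.2%, and in 17.2% of all. A match is only a match of letters in these windows, and no binding was measured.

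The members are taken next by role, beginning with the proteins of microtubules. Tubb3, the tubulin isotype that marks young neurons, had ratios of 0.70 and 0.13 in C57 pools 1 and 2 and of -0.24, 1.16 and 0.69 in MF1 pools 1, 2 and 3. It was above 0 in 4 of 5 pools, with a mean of 0.48 ± 0.24 (SE; limma adjusted p = 0.988), 1.39-fold. Dcx, the doublecortin of migrating neurons, lay at 0.50 and 0.19 in C57 and at 0.45 and 0.10 in MF1 pools 1 and 3. It was thus above 0 in all 4 pools measured in both dye orders, with a mean of 0.31 ± 0.15. Over these 4 pools the mean was 0.17 with caudal RNA in Cy5 and 0.47 with rostral RNA in Cy5. In MF1 pool 2 only the array with caudal RNA in Cy5 gave a Dcx ratio, at -0.705. When pools of 1 array were kept, the Dcx mean was 0.15. Of its 9 arrays, 6 lay above 0.

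Map2, which marks dendrites, was 0.33 and 0.03 in C57 and 0.12, -0.33 and -0.20 in MF1, so the strains overlapped around a mean of 0.02 ± 0.13. Mapt, the tau protein of axons, ranged from -0.25 in MF1 pool 1 to 0.81 in MF1 pool 3, with a mean of 0.21 ± 0.22. Over its 4 measured pools the Mapt mean was 0.64 when the caudal end carried Cy5 and -0.20 when the rostral end did. Map1b, the microtubule-associated protein that appears first in growing axons, had 0.35 and -0.26 in C57 and -0.43, 0.15 and -0.31 in MF1. Its sign thus changed between pools of the same strain.

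The stathmins bind free tubulin and destabilise microtubules. Stmn1, also expressed in dividing cells, was 0.72 and -0.36 in C57 and 0.28, -0.06 and 0.06 in MF1 (mean 0.14 ± 0.19). The Stmn1 mean was -0.13 without C57 pool 1 and 0.41 without C57 pool 2, and its dye orders gave -0.16 with caudal RNA in Cy5 and 0.44 with rostral. Stmn2, the form enriched in growth cones, had 0.38 and -0.07 in C57 and 0.55, -0.14 and -0.57 in MF1 (mean 0.05 ± 0.20). Stmn3 was 0.30 in C57 pool 1 and below 0 in the other 4 pools, from -0.14 to -0.51, with a mean of -0.14 ± 0.13. For all 3 stathmins the higher C57 value was that of pool 1. Over the 8 microtubule probes, 6 means lay above 0 and 2 below, with a median of 0.09.

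**Figure D2:**
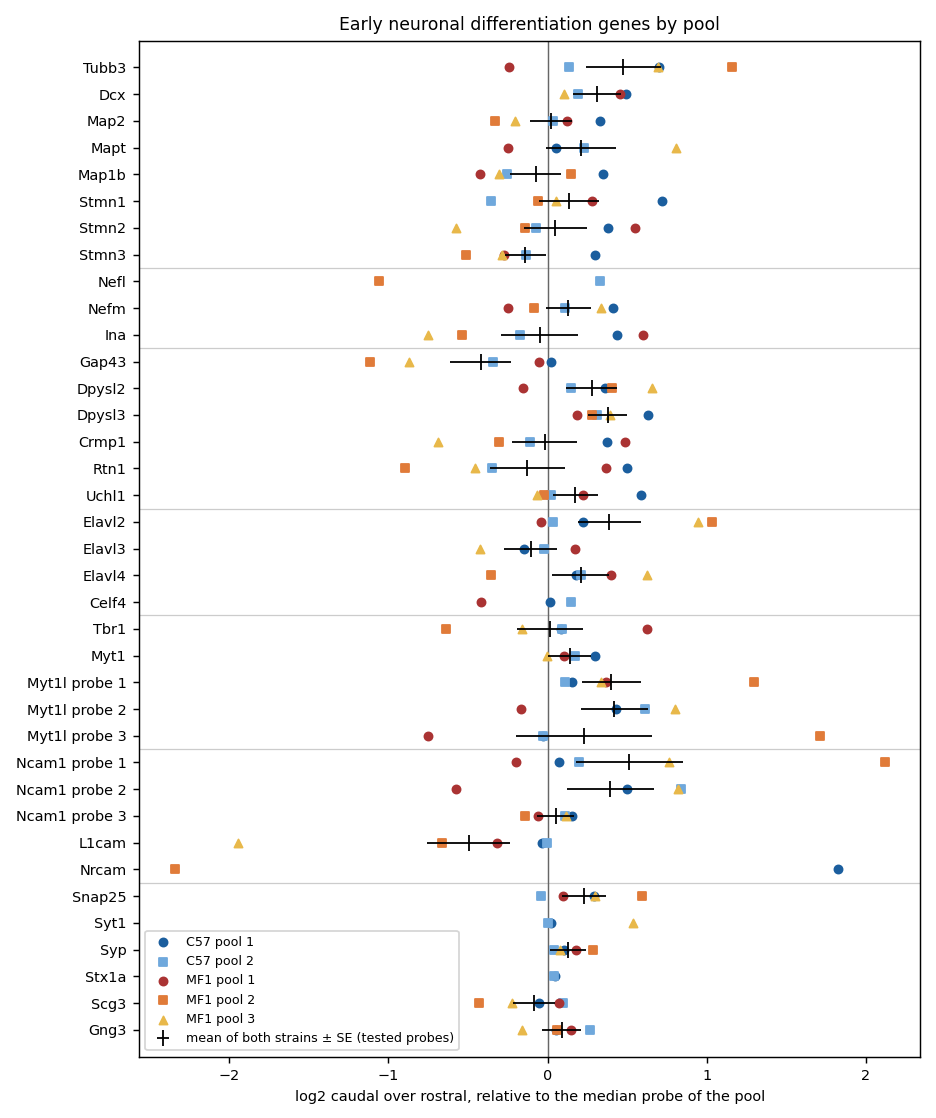
Each row is a member probe, ordered by role with grey lines between roles; coloured symbols are the 5 pools and black bars the mean of both strains ± SE from limma for the 32 tested probes (x axis: log2 caudal over rostral relative to the pool median). Dpysl3, Syp and Myt1l probe 1 lie right of 0 in all 5 pools and L1cam left of it, while Stmn2, Ina, Crmp1 and Rtn1 have pools on both sides.

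Neurofilament subunits build the axonal intermediate filaments, and Ina, the alpha-internexin, is the subunit that appears early in neurons. Ina had ratios of 0.44 and -0.17 in C57 and 0.60, -0.54 and -0.75 in MF1, a range of 1.35 around a mean of -0.05 ± 0.24. Nefm, the middle subunit, had 0.41 and 0.11 in C57 and -0.25, -0.08 and 0.34 in MF1, with a mean of 0.13 ± 0.14. Nefl, the light subunit, was measured in both dye orders in 2 pools, at 0.33 in C57 pool 2 and -1.06 in MF1 pool 2, and was not tested.

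Gap43, a membrane protein of growth cones, was the growth cone gene furthest to the rostral side. It had 0.02 and -0.34 in C57 and -0.06, -1.12 and -0.87 in MF1, with a mean of -0.42 ± 0.19 (limma adjusted p = 0.988), 1.34-fold. The 2 dye orders gave -0.42 and -0.50. MF1 pools 2 and 3 were therefore lower than the other 3 pools. Dpysl3 went the other way, with 0.63 and 0.31 in C57 and 0.19, 0.28 and 0.39 in MF1; the strains overlapped. Its mean was 0.38 ± 0.12, 1.30-fold, with a 95% interval from 0.08 to 0.68 and an adjusted p of 0.988 in limma. Of its 10 arrays, 9 gave a value above 0, and the means of the dye orders were 0.35 and 0.40. Among the 32 tested members Dpysl3 had the smallest p, yet it ranked 270 of the 11855 probes.

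Dpysl3 belongs to the collapsin response mediator family with Dpysl2 and Crmp1, which carry guidance signals to the cytoskeleton. Dpysl2 had 0.36 and 0.14 in C57 and -0.16, 0.40 and 0.65 in MF1, with a mean of 0.28 ± 0.16 and 4 of 5 pools above 0. Its dye orders gave 0.51 with caudal RNA in Cy5 and 0.08 with rostral. Crmp1 had 0.37 and -0.11 in C57 and 0.48, -0.30 and -0.69 in MF1, with a mean of -0.02 ± 0.21. Its dye orders had opposite signs, -0.44 and 0.36 in the same order. The 3 genes of the family thus differed in their pattern over pools. Rtn1, a reticulon of the neuronal endoplasmic reticulum, had 0.50 and -0.35 in C57 and 0.37, -0.90 and -0.46 in MF1 (mean -0.13 ± 0.24). Uchl1, an abundant neuronal deubiquitinase, had 0.58 and 0.02 in C57 and 0.22, -0.02 and -0.07 in MF1 (mean 0.17 ± 0.14). Of the 6 means of this group, in which Rtn1 and Uchl1 were counted with the growth cone genes, 3 lay above and 3 below 0, with a median of 0.08.

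Stmn2, Ina, Crmp1 and Rtn1 shared a pattern noticed after their values were seen: above 0 in pool 1 of C57 and of MF1, below 0 in the other 3 pools. They were 4 of 25 member probes, 16%, and 12.3% of all probes measured in 5 pools had the pattern. It was thus about as common over all probes as among the neuronal genes.

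The Elavl proteins bind AU-rich transcripts, and Elavl2, Elavl3 and Elavl4 are their neuronal forms. Elavl2 had ratios of 0.22 and 0.03 in C57 and of -0.04, 1.03 and 0.94 in MF1, with a mean of 0.39 ± 0.20. MF1 pools 2 and 3, which were the lowest for Gap43, were the highest for Elavl2. Elavl4 had 0.18 and 0.21 in C57 and 0.40, -0.36 and 0.63 in MF1 (mean 0.21 ± 0.18). Elavl3 had -0.15 and -0.02 in C57 and 0.17 and -0.43 in MF1 pools 1 and 3 (mean -0.11 ± 0.17). Celf4, a splicing and translation regulator of neurons, was measured at 0.02 and 0.15 in C57 and -0.42 in MF1 pool 1 and was not tested.

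Tbr1, the T-box factor of the first glutamatergic cortical neurons, had ratios of 0.09 and 0.09 in C57 and 0.62, -0.64 and -0.16 in MF1. Its mean was 0.02 ± 0.21, and the MF1 pools spread on both sides of C57. Myt1, a zinc finger factor related to Myt1l, lay between -0.0050 in MF1 pool 3 and 0.29 in C57 pool 1, with a mean of 0.14 ± 0.14 over 4 pools. The 3 Myt1l probes did not give the same picture. The probe that was above 0 in every pool had 0.15 and 0.11 in C57 and 0.37, 1.30 and 0.33 in MF1. Its mean of 0.40 ± 0.18 was 0.24 without MF1 pool 2, and the mean over arrays was 0.82 with caudal RNA in Cy5 and 0.11 with rostral RNA in Cy5. Another probe had 0.43 and 0.61 in C57 and -0.16 and 0.80 in MF1 pools 1 and 3 (mean 0.42 ± 0.21, 0.18 without MF1 pool 3 and 0.66 without MF1 pool 1). The last had -0.03 in both C57 pools and -0.75 and 1.71 in MF1 pools 1 and 2, the widest range of the tested members, 2.46 (mean 0.23 ± 0.43, and -0.39 without MF1 pool 2). All 5 tested probes for transcription factors had means above 0, with a median of 0.23, and none passed.

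The 3 probes for Ncam1, the neural cell adhesion molecule, differed as well. The probe of the largest mean among all members, 0.51 ± 0.34, had 0.07 and 0.19 in C57 and -0.20, 2.12 and 0.76 in MF1. That mean rested on MF1 pool 2 and was 0.21 without it, and 0.79 without MF1 pool 1. Another probe had 0.50 and 0.84 in C57 and -0.58 and 0.82 in MF1 pools 1 and 3 (mean 0.39 ± 0.27). Its mean was 0.05 without MF1 pool 3 and 0.74 without MF1 pool 1. The last stayed between -0.14 and 0.15 in all 5 pools, with a mean of 0.05 ± 0.12. The probes carry different sequence accessions, and which transcripts of Ncam1 each one matches was not tested.

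L1cam had ratios of -0.04 and -0.0015 in C57 and of -0.32, -0.66 and -1.94 in MF1, all below 0 and lower in each MF1 pool than in either C57 pool. Its mean was -0.50 ± 0.26 (limma adjusted p = 0.988), 1.41-fold. The value of MF1 pool 3 came from 1 array: -3.87 with caudal RNA in Cy5 and 0.04 with the dyes exchanged. Over all arrays the mean was -1.09 with caudal RNA in Cy5 and -0.07 with rostral RNA in Cy5. Without MF1 pool 3 the mean of both strains was -0.25, and it was -0.08 from the arrays whose rostral end carried Cy5. Nrcam, an adhesion molecule of the L1 family, gave both dye orders in 2 pools, at 1.82 in C57 pool 1 and -2.34 in MF1 pool 2, the widest range of any member, and was not tested.

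Genes of vesicle release come last. Syp had 0.11 and 0.04 in C57 and 0.18, 0.29 and 0.08 in MF1, with a mean of 0.13 ± 0.11 and 9 of 10 arrays above 0. The range between pools was 0.25, against a median range of 0.98 over the 25 member probes measured in 5 pools. Snap25, a SNARE protein of the plasma membrane, had 0.29 and -0.04 in C57 and 0.10, 0.59 and 0.30 in MF1 (mean 0.23 ± 0.14). Gng3, a neuronal G protein gamma subunit, was above 0 in 4 pools and -0.16 in MF1 pool 3 (mean 0.09 ± 0.12). Scg3, a secretogranin of dense-core vesicles, had -0.05 and 0.10 in C57 and 0.07, -0.43 and -0.22 in MF1 (mean -0.09 ± 0.13). Syt1, the calcium sensor of release, was measured at 0.02 and 0.0010 in C57 and 0.54 in MF1 pool 3. Stx1a, a SNARE partner of Snap25, was measured at 0.04 in both C57 pools and in no MF1 pool. Neither was tested. Of the 4 tested genes of this group, in which Gng3 was counted, 3 had means above 0 and 1 below, with a median of 0.11.

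Taken strain by strain, the C57 members had a median of 0.13 and 28 of 32 means above 0, 87.5% against 57.3% of all tested probes. Without subtracting the pool medians these were 31 of 32 and 77.7%. The size of the count depended on C57 pool 1. With C57 pool 2 alone 20 of 32 were above 0, against 45.4% of all tested probes, and the median was 0.07, against -0.02 for all tested probes. The members' median thus lay 0.08 above that of all tested probes with C57 pool 2 alone. It lay 0.23 above with C57 pool 1 alone and 0.11 above with both. With C57 pool 1 alone the count was 28 and the median 0.30, and 59.8% of all tested probes were above 0. In MF1 the members had a median of 0.05 and 19 of 32 means above 0, 59.4% against 52.6% of all tested probes. In both strains limma called 0 of the 11855 probes at an adjusted p of 0.05 (0%), and so no member.

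At an unadjusted p under 0.05 in limma, 1 member probe lay on the caudal side in C57, Dpysl3 at 0.47 ± 0.19, against 1.09% of all tested probes, and none on the rostral side, against 0.81%. In MF1 there were 2 on each side, 6.25% of the members, against 3.15% and 3.51% of all tested probes. As 1 member probe is 3.12% of the members, each of these shares stood about 1 probe from the background. On the caudal side in MF1 were Elavl2 at 0.65 ± 0.25 and 1 Myt1l probe at 0.67 ± 0.23. On the rostral side were Gap43 at -0.68 ± 0.25 and L1cam at -0.97 ± 0.33. The adjusted p values of these 4 in limma lay between 0.691 and 0.746, and none passed. The MF1 means of Elavl2 and Gap43 both depended on MF1 pools 2 and 3, whose values had opposite signs for the 2 genes.

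Whether the ratio differs between the strains was tested as MF1 minus C57. At an adjusted p of 0.05 limma called 0 of 11855 probes (0%), and the smallest adjusted p was 0.998. At an unadjusted p under 0.05 there was no member in either direction, against 1.12% of all tested probes for a higher and 1.28% for a lower ratio in MF1. L1cam had the smallest p among the members, with a difference of -0.96 ± 0.52. Stmn3 was next, with 0.08 ± 0.20 in C57 and -0.36 ± 0.16 in MF1, a difference of -0.44 ± 0.26. The median difference of the members was -0.17 and that of all tested probes -0.01.

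The exchange of dyes gives a check within each pool. Of the 32 tested member probes, 22 had means of the same sign in both dye orders, 16 above and 6 below 0, and 10 had opposite signs, each over the pools with both arrays. When 1 pool was left out in turn, the mean of 11 probes changed sign at least once: Map2, Mapt, Map1b, Stmn1, Stmn2, Ina, Crmp1, Rtn1, Elavl3, Tbr1 and 1 for Myt1l. The other 21 kept their sign, and 8 of them stayed within 1.5 times of their mean: Tubb3, Dcx, Gap43, Dpysl2, Dpysl3, Elavl2, Myt1 and Syp. Dcx and Myt1 have no value for MF1 pool 2, so leaving out that pool could not change their means. None of the 25 member probes measured on all 10 arrays had the same sign on all of them. The same share over all tested probes is not given for these sign counts. They therefore do not show whether members were more or less reproducible than other probes. The median gap between the 2 arrays of a pool was 0.27 and 0.23 in C57 pools 1 and 2 and 0.33, 0.45 and 0.40 in MF1 pools 1, 2 and 3 for the members. For all probes it was 0.38, 0.27, 0.46, 0.62 and 0.46 in the same order. The gap between 2 single arrays includes the effect of the dyes, which the average of a pair reduces, so it is not the error of a mean. The median size of the members' mean ratios was 0.16, beside a median standard error of 0.18. Members were also measured more often than other probes: 2.7% to 24.3% of the member probes lacked a dye order in a pool, against 8.69% to 44.7% of all probes.

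**Figure D3:**
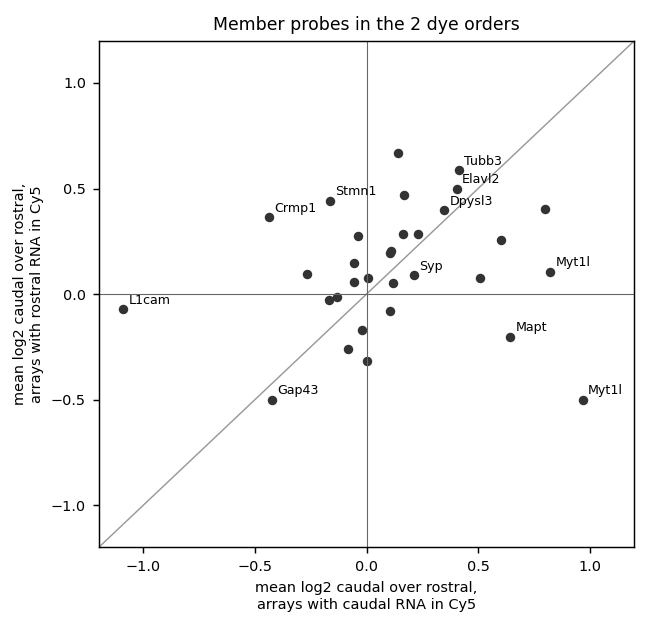
Each point is 1 of the 32 tested member probes, with its mean log2 caudal over rostral (each array centred on its own median) over arrays whose caudal end carried Cy5 (x axis) and over their dye-swapped partners (y axis), for the 4 or 5 pools with both; the grey diagonal marks equal values and some points are named. Dpysl3 (0.35 and 0.40) and Gap43 (-0.42 and -0.50) lie close to the diagonal, while L1cam (-1.09 and -0.07) and Mapt (0.64 and -0.20) lie far from it.

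A further list of 67 neuronal genes outside the members gave 50 tested probes for 44 genes. Their median was 0.05, with 28 means above and 22 below 0, and none passed in limma. At an unadjusted p under 0.05 there were 5 on the caudal side, 10% of the 50 against 2.19% of all tested probes, and 2 on the rostral side, 4% against 2.41%. Both probes of Gpm6a are among the 5. The list was made with earlier results of these data known, so these shares carry no test. It also shares genes with the marker lists below, Neurod1 and Nhlh2 among them. Neurod1, a proneural factor of young neurons, had 0.90 and 0.55 in C57 and 0.84, 0.43 and 0.60 in MF1 (mean 0.68 ± 0.13, adjusted p = 0.658). Gpm6a, a membrane glycoprotein of growth cones, was above 0 in all 5 pools at both probes, with means of 0.89 ± 0.19 and 0.51 ± 0.14. On the rostral side, Ebf1, a transcription factor of differentiating neurons, was below 0 in all 4 measured pools (mean -0.70 ± 0.15). Gria2, an AMPA receptor subunit, was below 0 in all 5 (mean -0.44 ± 0.15). Stmn4, another stathmin, had -2.10 and -0.65 in MF1 pools 2 and 3 and between 0.02 and 0.04 in the other pools (mean -0.44 ± 0.32). Neuronal genes outside the members thus also lay on both sides.

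Markers of other cells were read in the same way, and limma called none of their probes at an adjusted p of 0.05. Beside the sign counts of these lists, 56.4% of all tested probes had a mean above 0. Proneural and intermediate progenitor genes, which precede neurons in the lineage, stood at list medians of 0.40 and 0.23 for C57 and 0.55, -0.27 and -0.29 for MF1. The highest C57 pool for these progenitors, pool 1, was also the highest for the members, and MF1 pool 1 was the highest MF1 pool for both. For the members MF1 pools 1 and 3 were close, at 0.10 and 0.07. The same order of pools held for the radial progenitor, Cajal-Retzius, cell cycle, blood and other neuronal lists, so it is not particular to these progenitors. It did not hold for the ventral telencephalon, sensory ganglia, cortical hem, meningeal and surface ectoderm lists. Radial progenitor markers had 10 of 13 tested probes below 0, with list medians of 0.07 and -0.16 in C57 and -0.01, -0.36 and -0.28 in MF1. Slc1a3 and Pax6 count more than once there, and the tested Pax6 probes lay at -0.04 and 0.06. Cajal-Retzius markers, of an early neuron type of the cortical surface, had medians of 0.20 and 0.09 in C57 and 0.10, -0.09 and -0.17 in MF1. Among genes named after their values were seen, Reln, the secreted protein of these neurons, had a mean of -0.69 ± 0.16 at its tested probe, while an untested Reln probe was above 0 in 3 of 4 pools. Trp73, a transcription factor of the same cells, had 0.87 ± 0.32.

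Ventral telencephalon markers, of the tissue next to the rostral and lateral cortex that makes inhibitory neurons, had 8 of 11 tested probes below 0. Their list medians ran from -0.46 in MF1 pool 2 to 0.10 in MF1 pool 3. Dlx2, named after its values were seen as it has the smallest p of that list, a homeobox factor of that tissue, had 0.11 and -0.21 in C57 and -1.35, -1.97 and -1.47 in MF1 (mean -0.82 ± 0.15, adjusted p = 0.658 in limma). Markers of sensory ganglia, neurons outside the brain that share many members, had a median of 0.0041 over 5 tested probes. Cell cycle genes had a median of 0.04, with 7 of 10 tested probes above 0, against 56.4% of all tested probes. Cortical hem and choroid plexus, blood, meningeal and surface ectoderm lists had medians of 0.41, 0.29, -0.20 and -0.63. The part of any of these cells in the neuronal ratios was not tested.

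**Figure D4:**
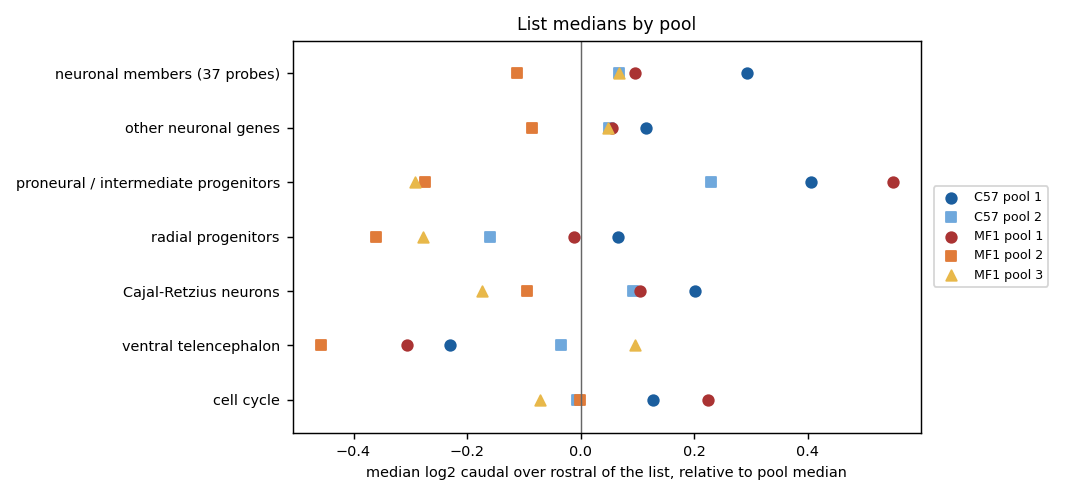
Each symbol is the median log2 caudal over rostral of a gene list in 1 pool (x axis, relative to the pool median; rows are lists; colours are the 5 pools). The members run from -0.11 in MF1 pool 2 to 0.29 in C57 pool 1, and the proneural and intermediate progenitor list from -0.29 to 0.55.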

How the data were processed

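The authors deposited 1 log2 ratio of Cy5 and Cy3 per probe and array, a unit read from the values. How they corrected background and normalized, not given in the sources used here, can shift every ratio of an array. RNA was prepared with Trizol, per the labels' descriptions, and the cDNA amplified with the SMART system, per the design text. Values at a shared ceiling of 16.61 (436 values) and null values were taken as missing. The 232 control spots were left out. Signs were set so that caudal is over rostral, both arrays of a pool were averaged, and the pool's median over all probes was subtracted, because the members are compared with that median.

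All 11855 probes that met the filter entered limma (version 3.58.1, R version 4.3.3; lmFit and eBayes, a coefficient per strain; 2.60 prior degrees of freedom and 3 residual ones with 5 pools), two-sided, with Benjamini-Hochberg adjustment over all of them. Errors are moderated SE. The design text has tissue collected within single litters and does not say whether the pools of a strain share one, so p-values measure the spread between these pools. Gene names come from the platform annotation; 15952 of 16632 single symbols matched RefSeq. The members and lists were chosen with earlier results of these data known. The rule for named genes was every member: values in every pool for those with an unadjusted p under 0.05 over both strains, those on 1 side in all 5 pools, the 2 of smallest p for the strain difference and the 2 of widest range. Beyond that rule, most other members are given by pool too. Of the other neuronal genes, the 3 probes of smallest p on each side are named. The fit was tried on simulated data with independent noise and added shifts of at least 1 on the log2 scale. These shifts are larger than the mean of any tested member, so the simulation says nothing about differences of the size seen here. Alternatives are listed in the closing section. Figures used matplotlib 3.10.9 in Python 3.11.15.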

Additional observations from a re-analysis of the deposited data

How the results depend on the processing

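In all 18 alternative settings for the mean of both strains, and in all 73 over the 4 comparisons, 0 members passed; the smallest adjusted p of a member for the mean of both strains was 0.204. With the 10 arrays fitted singly, a dye term and the pool as a random block (correlation 0.264), 8 probes passed for both strains (Ttr, Rspo3, Spry1, Mpped2, Esm1, 2 for Sfrp1 and 1 unnamed) and 2 for C57, none of them a member. Leaving out 1 pool moved the members' median in C57 between 0.067 and 0.30. Without centring the members' median for both strains was 0.19 and that of all tested probes 0.09, with 25 of 32 members and 69.4% of all tested probes above 0. The members' median for both strains ran from 0.06, with pools of 1 array kept, to 0.19 over the alternatives. In MF1 it was -0.05 from arrays whose caudal end carried Cy5, -0.02 with pools of 1 array kept and -0.0040 without MF1 pool 1, against 0.05. Of 537 single-probe values under the alternatives, 535 moved by less than 1 SD between pools. The exceptions were Dcx at 0.04 from arrays with the caudal end in Cy5 and Mapt at -0.27 from the others. Each has an MF1 pool 2 array without a partner. This count is no measure of stability. Settings that change only the variance or the set of probes leave the value as it was, and leaving out 1 pool seldom moves a mean by 1 SD. The 535 include values of the 11 probes whose sign changed when 1 pool was left out.

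Pool numbers are shared by the strains. With the pool number as a replicate block, 0 probes and 0 members passed for MF1 minus C57 (smallest adjusted p 0.859). Deviations of same-numbered pools from their strain mean correlated at 0.13 (number 1) and -0.02 (number 2). With 2 C57 pools these deviations are equal in size and opposite in sign in C57, so the 2 values are not separate checks. Whether same-numbered pools share more than a number was not tested. A setting that leaves 1 C57 pool takes its spread from the other pools. With 5 pools, sign changes of single pools cannot give an exact two-sided p below 0.0625.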
